A study of Mus musculus with 12 samples.

Results

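The collagen chain genes are the genes whose symbol has the form Col, a type number, the letter a and a chain number, such as Col1a1. Among the 24553 entries of each deposited gene table, 45 carried such a name, alone or joined with other names by commas. They gave 44 genes, because Col15a1 had 2 entries, of which the one with the higher mean was used. All 44 symbols were found in the RefSeq annotation of mouse assembly GRCm38.p6, from which the coordinates below were taken, since the deposited tables hold names and no positions. The genes were put into 7 classes by the structure their chains are known to build.

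RNA was sequenced from 12 mouse liver samples in 4 groups of 3, namely Setd2 knockout (KO) tumors, wild-type (WT) tumors, KO livers and WT livers. Setd2 encodes the histone methyltransferase that trimethylates lysine 36 of histone H3. Sample titles write cKO for the knockout, and neither the cells that lost the gene nor a Cre driver is given in the sources used here. Tumors came from male mice that received 1 intraperitoneal dose of the liver carcinogen diethylnitrosamine (DEN), 25 mg/kg, at 2 weeks of age and were killed 8 months later. The normal livers came from males aged 8 months that had no DEN. A tumor therefore differed from a liver both in tissue and in carcinogen exposure, and the effects of these cannot be told apart. Per the labels, samples of a group are replicates, but they are not stated to be separate animals, so a p-value here reflects sample-to-sample spread, which may be technical.

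Collagens are triple-helical proteins of the extracellular matrix. Types I, III and V assemble into the banded fibrils that give scar tissue its strength, type IV forms the sheet of basement membranes, type VI forms beaded filaments around cells, and other chains coat fibrils, sit in the cell membrane or carry sugar side chains. In the liver, hepatic stellate cells and portal fibroblasts are the known main source of fibrillar collagen, and their activation with deposition of types I and III is the basis of fibrosis.

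Setd2 itself had 3.14, 2.18 and 1.901 FPKM in KO tumors and 4.402, 3.61 and 4.07 FPKM in WT tumors. It had 1.66, 1.93 and 1.32 FPKM in KO livers and 4.84, 3.84 and 4.701 FPKM in WT livers. FPKM counts fragments relative to transcript length and to the mapped fragments of the library, so levels of different genes can be set side by side. Setd2 fell in KO livers against WT livers (log2 difference -1.05 ± 0.14, adjusted p = 0.0108), and in tumors the difference did not pass the test (-0.57 ± 0.19, adjusted p = 0.188). Hepatocyte marker genes, 10 of 10 found, summed to 13443 to 25059.7 FPKM in KO tumors, 33039 to 43806 FPKM in WT tumors, 22274 to 29334 FPKM in KO livers and 26681 to 30915 FPKM in WT livers. The KO tumors resembled each other least, with Pearson's r of 0.924 to 0.942 between their profiles across genes, and 0.949 to 0.986 within the other groups. Library sums of FPKM ranged from 423498 to 719538, and the tables do not hold read depth, so counting error is not known. An exact 0 in these tables can be a failed estimate, since Alb, the albumin gene, is listed at 0 in 11 libraries. No collagen gene that was tested is listed at 0.

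Promoter windows are shown for 5 chain genes on which the comparisons turn. Col1a2 and Col3a1 encode chains of the main fibrils, Col5a3 encodes a fibril chain that was ordered the other way across the groups, and Col4a1 and Col4a2 start back to back. Each window holds 300 bases around the RefSeq gene start on GRCm38.p6, mostly upstream of it, and is printed 5′ to 3′ on the gene's strand. In the windows of Col1a2 (chr6:4505368-4505667, plus strand), Col3a1 (chr1:45311288-45311587, plus strand) and Col5a3 (chr9:20815018-20815317, minus strand), capitals mark, on either strand, the letters CCAAT of the CCAAT box, the letters GGGCGG of the GC box and the letters TATAAA of the TATA box.
Col1a2: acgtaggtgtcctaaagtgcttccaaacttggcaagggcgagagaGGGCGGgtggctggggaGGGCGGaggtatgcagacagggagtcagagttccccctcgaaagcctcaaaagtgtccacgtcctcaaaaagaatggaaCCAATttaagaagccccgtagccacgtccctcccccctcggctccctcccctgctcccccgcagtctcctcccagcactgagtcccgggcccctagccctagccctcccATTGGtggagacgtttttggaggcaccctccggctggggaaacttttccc
Col3a1: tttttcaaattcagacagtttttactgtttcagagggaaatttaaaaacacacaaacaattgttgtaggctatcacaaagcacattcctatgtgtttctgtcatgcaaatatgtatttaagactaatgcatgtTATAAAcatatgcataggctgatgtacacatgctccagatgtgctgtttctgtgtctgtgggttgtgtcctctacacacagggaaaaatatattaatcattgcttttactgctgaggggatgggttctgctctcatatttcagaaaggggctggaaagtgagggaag
Col5a3: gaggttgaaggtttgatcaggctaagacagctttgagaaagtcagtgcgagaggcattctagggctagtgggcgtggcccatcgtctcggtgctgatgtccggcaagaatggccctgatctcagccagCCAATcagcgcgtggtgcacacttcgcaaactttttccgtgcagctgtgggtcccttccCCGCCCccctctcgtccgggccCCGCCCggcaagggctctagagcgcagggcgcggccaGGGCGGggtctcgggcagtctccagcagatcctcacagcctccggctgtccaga
In the windows of Col4a1 (chr8:11312777-11313076, minus strand) and Col4a2 (chr8:11312555-11312854, plus strand), capitals mark the 78 bases, chr8:11312777-11312854, that both windows hold on opposite strands.
Col4a1: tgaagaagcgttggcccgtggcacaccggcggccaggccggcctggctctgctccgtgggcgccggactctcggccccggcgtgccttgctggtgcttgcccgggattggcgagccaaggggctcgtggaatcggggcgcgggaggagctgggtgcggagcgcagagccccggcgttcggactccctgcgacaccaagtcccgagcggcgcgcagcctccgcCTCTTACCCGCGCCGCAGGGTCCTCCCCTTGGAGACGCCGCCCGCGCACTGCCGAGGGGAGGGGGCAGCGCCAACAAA
Col4a2: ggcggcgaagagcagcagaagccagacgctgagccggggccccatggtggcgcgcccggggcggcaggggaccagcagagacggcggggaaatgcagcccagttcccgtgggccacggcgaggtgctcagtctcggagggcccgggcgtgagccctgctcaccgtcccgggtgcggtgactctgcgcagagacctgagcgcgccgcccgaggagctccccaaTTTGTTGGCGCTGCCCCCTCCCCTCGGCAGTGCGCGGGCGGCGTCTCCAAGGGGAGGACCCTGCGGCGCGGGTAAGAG
The Col1a2 window held 2 CCAAT and 2 GGGCGG matches and the Col5a3 window 1 CCAAT and 3 GGGCGG matches, whereas the Col3a1 window held 1 TATAAA match. In RefSeq, windows were found for 35 of the 44 collagen genes, 38 windows in all. CCAAT was in 34.2% of these and in 37.4% of the 32841 windows of the whole table, GGGCGG in 60.5% against 35.7%, and TATAAA in 13.2% against 13.6%. A match is a run of letters and not a binding site.

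Of the 44 genes, 19 were tested because 3 or more of the 12 libraries had at least 1 FPKM, and 25 were not. The tested genes were 7 of 11 fibrillar chains, 3 of 6 type IV chains, 3 of 6 type VI chains, 3 of 9 fibril-associated chains, both multiplexins, 1 of 4 membrane-spanning chains and 0 of 6 network, anchoring and other chains. Col5a1 passed this filter through the KO tumors alone, so it had to be higher there. Col4a3, Col5a2 and Col6a3 passed it through tumors alone, with no liver reaching 1 FPKM. The filter thus favored a rise of these genes in tumors against livers. Col12a1 passed it through the KO tumors and WT livers 2 and 3, with no WT tumor or KO liver reaching 1 FPKM. 1 of the 19, Col20a1, had only an entry joined with the gene Arfgap1, so that entry is counted below but its values cannot be assigned to the collagen. The other 25 stayed below this filter and are described at the end of the class accounts.

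Summed over the 42 genes with an entry of their own, collagen FPKM was 364, 614 and 328 in KO tumors 1, 2 and 3, 239, 263 and 261 in WT tumors, 236, 246 and 307 in KO livers and 231, 225 and 209 in WT livers. Col18a1 alone, the gene of a multiplexin whose cleaved end is endostatin, held the top place in all 12 libraries. Without it the sum was 243, 478 and 153 in KO tumors, 66.2, 86.6 and 73.5 in WT tumors, 53.1, 73.7 and 82.8 in KO livers and 44.4, 62.9 and 46.4 in WT livers. Each KO tumor thus lay above each library of the other 3 groups, while WT tumors overlapped with KO livers.

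Because Col18a1 held so much of the sum, the share of each class was taken with and without it. Fibrillar chains made up 23.05 to 38.1% of the collagen FPKM in KO tumors, 9.53 to 15.1% in WT tumors, 11.2 to 17.6% in KO livers and 6.99 to 11.5% in WT livers. Type IV chains made up 14.1 to 28.2% in KO tumors, 9.49 to 11.6% in WT tumors, 3.66 to 5.200% in KO livers and 6.11 to 10.2% in WT livers. Multiplexins made up 25.3 to 54.2% in KO tumors and between 68.0 and 81.3% in the libraries of the other groups. With Col18a1 left out, KO tumors no longer had the highest shares. Fibrillar chains then made up 48.9 to 50.2% in KO tumors, 34.4 to 46.1% in WT tumors, 50.00 to 58.6% in KO livers and 31.5 to 42.1% in WT livers. These shares rest on different genes. Col5a3 had a mean of 22.7 FPKM in KO livers, where fibrillar chains summed to 39.2 FPKM on average. In KO tumors the same means were 4.89 and 144 FPKM. Type IV chains then made up 30.1 to 36.2% in KO tumors, 33.7 to 41.7% in WT tumors, 12.2 to 23.1% in KO livers and 31.9 to 46.00% in WT livers, where KO livers stood lowest. Below Col18a1, the next chain was Col4a1 in each of the 6 tumors and in 2 WT livers, and Col5a3 in the 3 KO livers and in WT liver 1. These sums and shares are descriptions and were not tested.

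**Figure D1:**
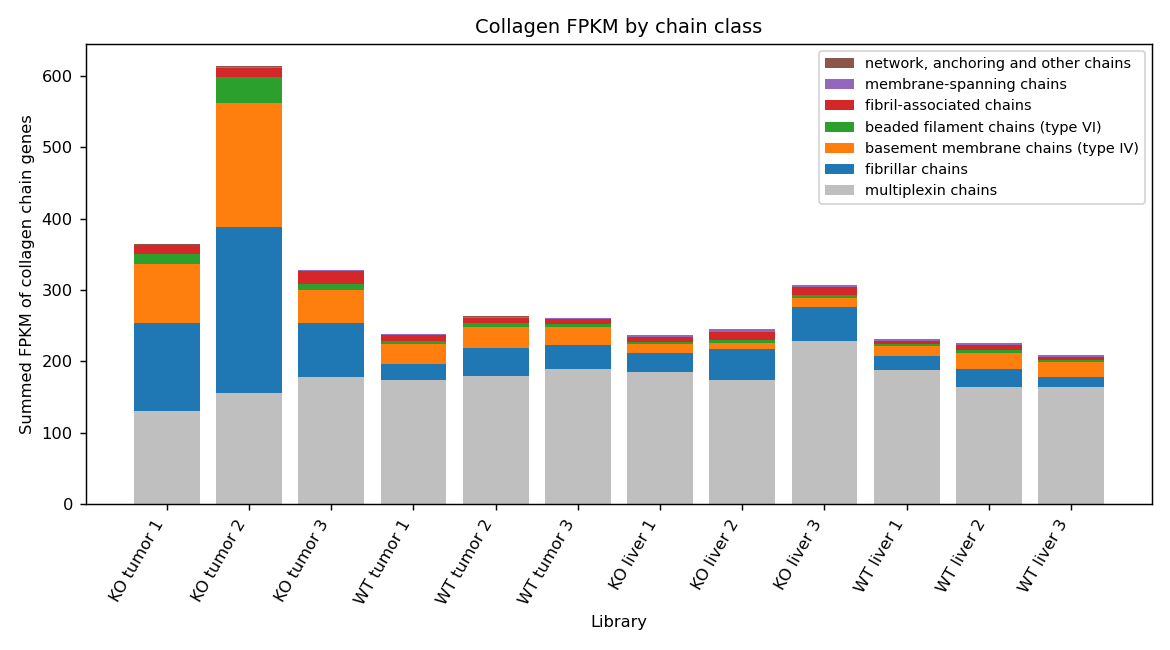
Summed FPKM of the 42 collagen genes with their own entry (vertical axis) in each of the 12 libraries, stacked by chain class. The grey multiplexin block, nearly all Col18a1, is of similar height throughout, and the fibrillar and type IV blocks are tallest in KO tumor 2, whose bar reaches 614.

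**Figure D2:**
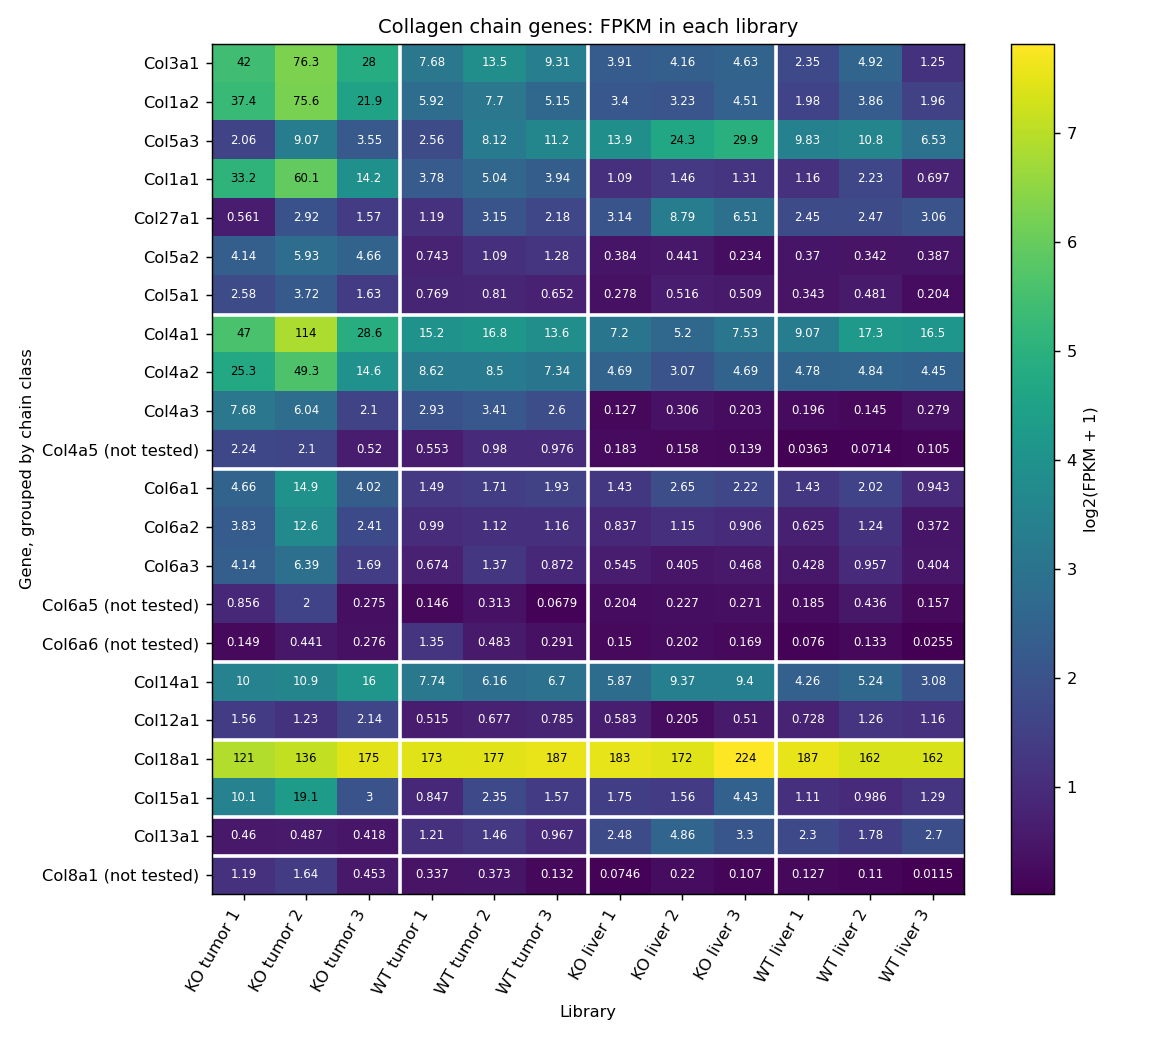
FPKM of each collagen gene that was tested and has its own entry, and of 4 others that reached an FPKM of 1 in some library, in the 12 libraries; colour is log2(FPKM + 1), printed numbers are FPKM, and white lines part the classes and groups. The 3 left columns, the KO tumors, are brightest for Col1a1, Col1a2, Col3a1, Col4a1 and Col4a2, whereas Col5a3 is brightest in KO livers.

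Type I collagen, the main protein of scar fibrils, is built from 2 Col1a1 chains and 1 Col1a2 chain, and type III, which forms finer fibrils beside it, from Col3a1 alone. All 3 genes stood highest in KO tumors and second in WT tumors. Col1a1 (chr11:94936224-94953042) had 33.2, 60.1 and 14.2 FPKM in KO tumors and 3.78, 5.04 and 3.94 FPKM in WT tumors. In livers it had 1.09, 1.46 and 1.31 FPKM in KO mice and 1.16, 2.23 and 0.697 FPKM in WT mice. Each tumor lay above each liver, and each KO tumor above each WT tumor, while the livers of both genotypes overlapped. The mean in KO tumors was 27.8 times that in KO livers, and the mean in WT tumors 3.12 times that in WT livers. On log2(FPKM + 1), limma with p-values adjusted over all 11671 tested entries gave a rise in KO tumors against KO livers (log2 difference 3.79 ± 0.46, adjusted p = 0.00807; ± is the SE) and in WT tumors against WT livers (1.20 ± 0.24, adjusted p = 0.0208). KO tumors against WT tumors differed by 2.60 ± 0.47, which did not pass at the threshold of 0.05 (adjusted p = 0.0775). In KO livers against WT livers the difference was 0.00 ± 0.23 (adjusted p = 0.996).

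Col1a2 (chr6:4505618-4541543) had 37.4, 75.6 and 21.9 FPKM in KO tumors and 5.92, 7.698 and 5.15 FPKM in WT tumors. Its livers held 3.402, 3.23 and 4.51 FPKM in KO mice and 1.98, 3.86 and 1.96 FPKM in WT mice. The order of the groups was that of Col1a1. Col1a2 rose in KO tumors against KO livers (3.12 ± 0.41, adjusted p = 0.00965) and in WT tumors against WT livers (1.04 ± 0.23, adjusted p = 0.0277), and KO tumors against WT tumors missed the threshold (2.50 ± 0.42, adjusted p = 0.07204). The FPKM ratio of Col1a1 to Col1a2 was 0.887, 0.795 and 0.648 in KO tumors, 0.639, 0.655 and 0.765 in WT tumors, 0.3201, 0.454 and 0.291 in KO livers and 0.589, 0.577 and 0.356 in WT livers. It was lower in each liver than in each tumor, and no library reached the 2 to 1 proportion of the protein.

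Col3a1 (chr1:45311538-45349706), the third of these fibril genes, had 42.00, 76.3 and 27.98 FPKM in KO tumors and 7.68, 13.5 and 9.31 FPKM in WT tumors. It had 3.91, 4.16 and 4.63 FPKM in KO livers and 2.35, 4.92 and 1.25 FPKM in WT livers. Again the 3 KO tumors lay above the 3 WT tumors, which lay above the 6 livers. Col3a1 rose in KO tumors against KO livers (3.13 ± 0.34, adjusted p = 0.00698) and in WT tumors against WT livers (1.62 ± 0.36, adjusted p = 0.0262), and KO against WT tumors gave 2.07 ± 0.38, adjusted p = 0.0788. The ratio of Col3a1 to Col1a1 was 1.26, 1.27 and 1.98 in KO tumors, 2.03, 2.68 and 2.36 in WT tumors, 3.59, 2.84 and 3.53 in KO livers and 2.02, 2.21 and 1.79 in WT livers. Type III RNA therefore outweighed that of the type I alpha 1 chain least in KO tumors and most in KO livers.

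**Figure D3:**
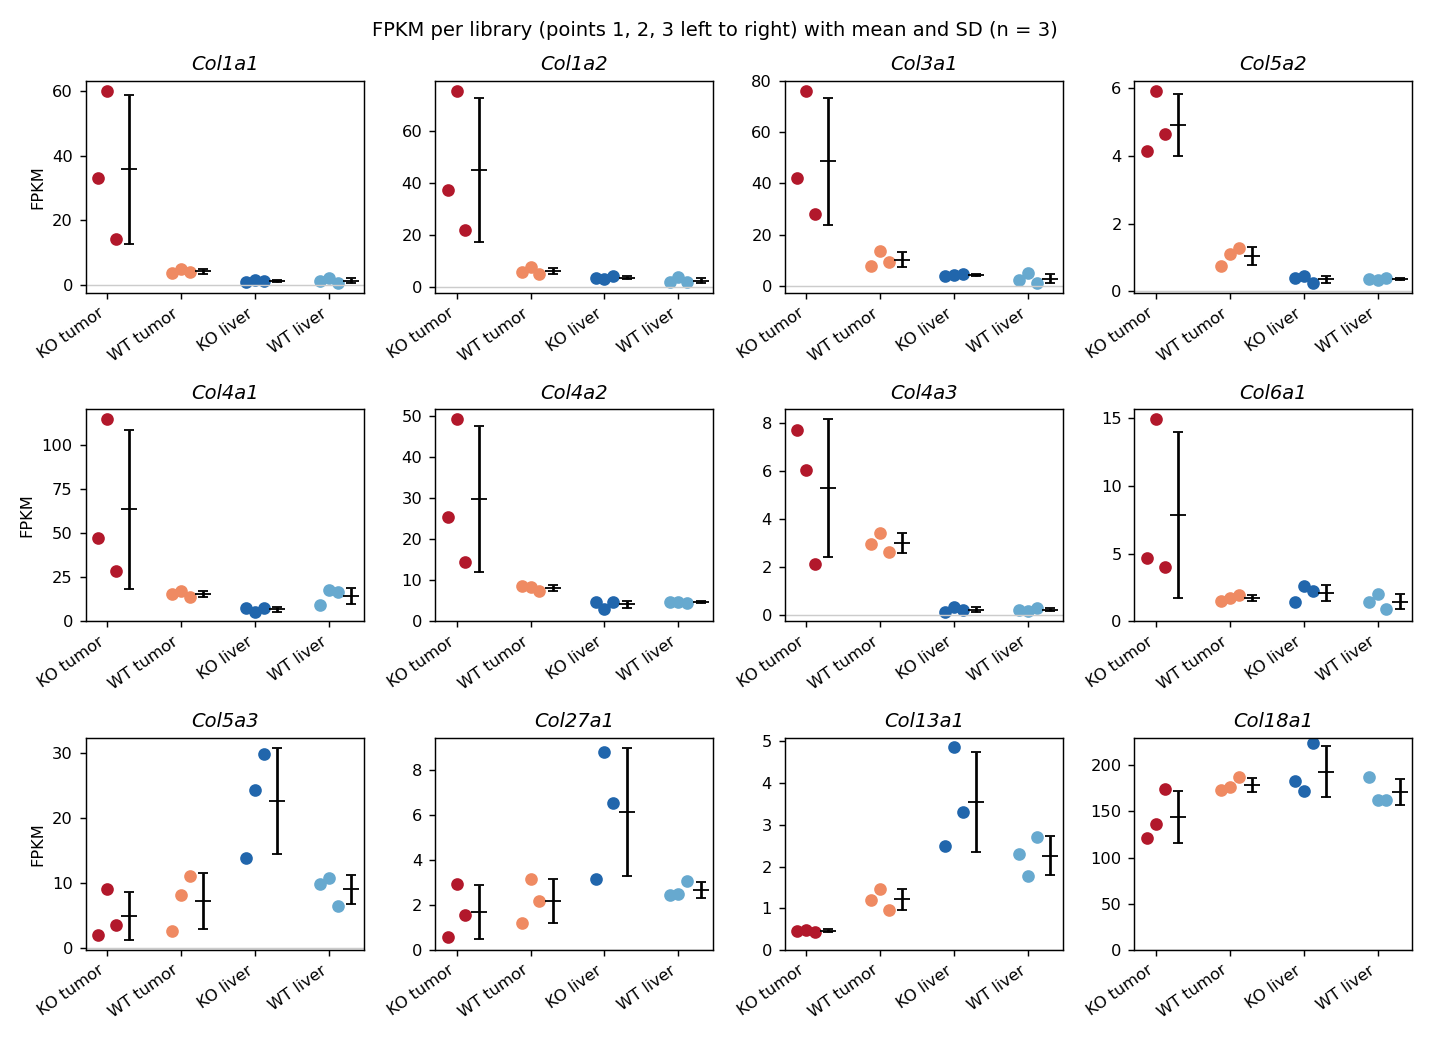
FPKM (vertical axis, from 0, separate for each gene) of 12 collagen genes in the 3 libraries of each group, as points, with the mean and SD beside them. Type I, III, IV and VI genes are highest and most spread in KO tumors, Col5a3, Col27a1 and Col13a1 are highest in KO livers, and Col18a1 is nearly level.

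Type V collagen is a minor partner inside type I fibrils, where it is known to start fibrils and limit their width. Its 3 chain genes did not keep together. Col5a1 (chr2:27886381-28039510) had 2.58, 3.72 and 1.63 FPKM in KO tumors, 0.769, 0.8102 and 0.652 FPKM in WT tumors, 0.278, 0.516 and 0.509 FPKM in KO livers and 0.343, 0.481 and 0.204 FPKM in WT livers. It rose in KO tumors against KO livers (1.31 ± 0.24, adjusted p = 0.0188), but the filter let it in through these tumors alone. Col5a2 (chr1:45374331-45503282), which lies 24624 bases from Col3a1 on chromosome 1, had 4.14, 5.93 and 4.66 FPKM in KO tumors and 0.743, 1.09 and 1.28 FPKM in WT tumors. The livers had 0.384, 0.441 and 0.234 FPKM in KO mice and 0.3698, 0.342 and 0.387 FPKM in WT mice. KO tumors varied less in Col5a2 than in the type I genes, and the groups followed the same order. Col5a2 rose in KO tumors against KO livers (2.12 ± 0.18, adjusted p = 0.00364) and in WT tumors against WT livers (0.57 ± 0.14, adjusted p = 0.0387). For KO against WT tumors it came nearest of all collagen genes to passing (1.53 ± 0.19, adjusted p = 0.0512).

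Col5a3 (chr9:20770050-20815117), the third type V chain gene, whose promoter window is printed above, ran against its partners. KO tumors had 2.06, 9.07 and 3.55 FPKM and WT tumors 2.56, 8.12 and 11.2 FPKM. KO livers had 13.9, 24.3 and 29.9 FPKM and WT livers 9.83, 10.8 and 6.53 FPKM. The 3 KO livers were the highest of the 12 libraries, and tumors of both genotypes overlapped. Col5a3 fell in KO tumors against KO livers (-2.13 ± 0.47, adjusted p = 0.0293) and rose in KO livers against WT livers (1.20 ± 0.29, adjusted p = 0.0365), whereas WT tumors against WT livers gave -0.43 ± 0.44, adjusted p = 0.5199. Set against Col5a1, Col5a3 had 0.796, 2.44 and 2.17 times its FPKM in KO tumors, 3.33, 10.03 and 17.1 times in WT tumors, 49.8, 47.2 and 58.8 times in KO livers and 28.7, 22.4 and 32.1 times in WT livers. The 4 groups did not overlap in this ratio.

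Col27a1 (chr4:63214009-63334991), which encodes a fibrillar chain best known from cartilage, had the same leaning as Col5a3. KO tumors had 0.561, 2.92 and 1.57 FPKM, WT tumors 1.19, 3.15 and 2.18 FPKM, KO livers 3.14, 8.79 and 6.51 FPKM and WT livers 2.45, 2.47 and 3.06 FPKM. The KO livers exceeded the WT livers and the KO tumors without overlap, but neither KO livers against WT livers (0.88 ± 0.30, adjusted p = 0.0787) nor KO tumors against KO livers (-1.43 ± 0.42, adjusted p = 0.0616) passed. Markers of cartilage and bone stayed near 0, with a sum of at most 0.149 FPKM in any library for 5 of 5 genes found, of which Ibsp and Matn1 are listed at 0 in all 12.

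**Figure D4:**
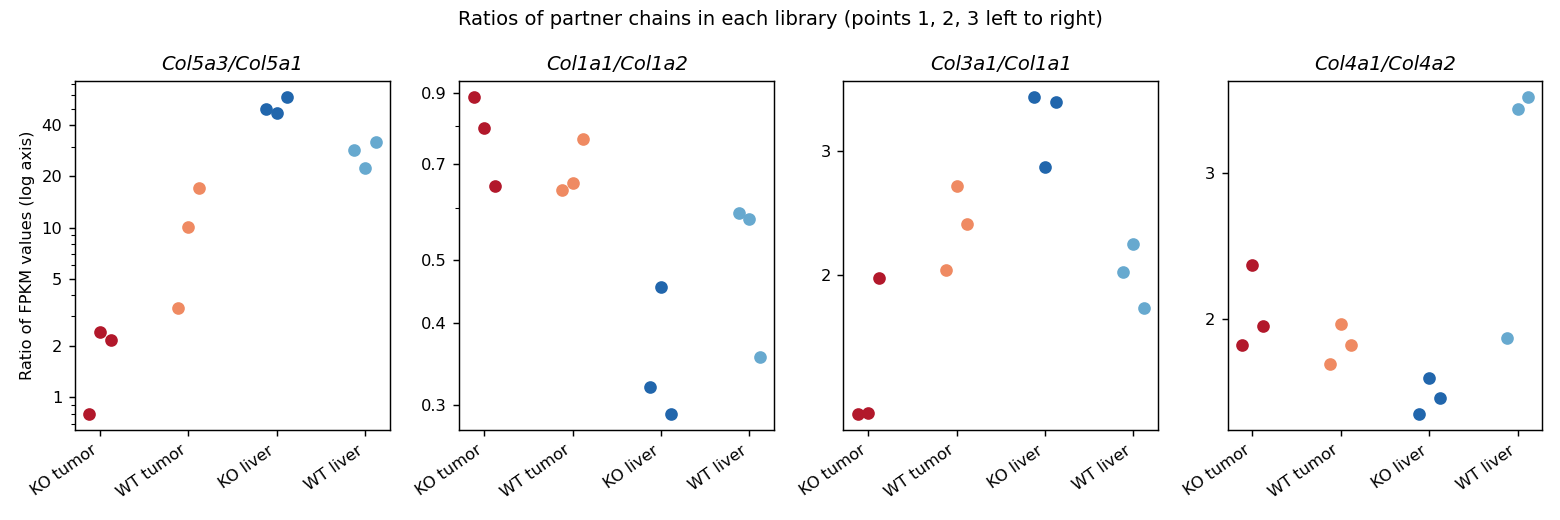
Ratios of FPKM values between partner chains (vertical axes, log scale) in the 3 libraries of each group. Col5a3 over Col5a1 is 0.796, 2.44 and 2.17 in KO tumors and 49.8, 47.2 and 58.8 in KO livers, and Col4a1 over Col4a2 is highest in WT livers 2 and 3.

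Type IV collagen is the sheet-forming collagen of basement membranes, and its common form joins 2 Col4a1 chains with 1 Col4a2 chain. The genes lie head to head on chromosome 8, Col4a1 at chr8:11198423-11312889 and Col4a2 at chr8:11312805-11449287, and overlap by 85 bases. The library kit did not keep the strand, so reads from the overlap cannot be told apart. Col4a1 had 47.01, 114 and 28.6 FPKM in KO tumors and 15.2, 16.8 and 13.6 FPKM in WT tumors. It had 7.200, 5.205 and 7.53 FPKM in KO livers and 9.07, 17.3 and 16.5 FPKM in WT livers. KO tumors were highest and KO livers lowest, and WT tumors lay within the range of WT livers. Col4a1 rose in KO tumors against KO livers (2.85 ± 0.46, adjusted p = 0.0146) and fell in KO livers against WT livers (-0.96 ± 0.25, adjusted p = 0.0428). WT tumors against WT livers gave 0.13 ± 0.24, adjusted p = 0.729, and KO against WT tumors 1.76 ± 0.46, adjusted p = 0.133.

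Col4a2 had 25.3, 49.3 and 14.6 FPKM in KO tumors, 8.62, 8.499 and 7.34 FPKM in WT tumors, 4.69, 3.07 and 4.69 FPKM in KO livers and 4.78, 4.84 and 4.45 FPKM in WT livers. Its KO and WT livers overlapped (-0.16 ± 0.16, adjusted p = 0.503). It rose in KO tumors against KO livers (2.43 ± 0.41, adjusted p = 0.0157) and in WT tumors against WT livers (0.68 ± 0.12, adjusted p = 0.0126). Col4a1 over Col4a2 was 1.86, 2.32 and 1.96 in KO tumors, 1.76, 1.97 and 1.86 in WT tumors, 1.53, 1.69 and 1.605 in KO livers and 1.897, 3.58 and 3.702 in WT livers. WT livers 2 and 3 stood apart in this ratio from the other 10 libraries. The printed promoter windows of Col4a1 and Col4a2 overlap by 78 bases, shown in capitals.

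Col4a3 (chr1:82586921-82722059) encodes a type IV chain known from the basement membranes of kidney glomerulus and lung alveoli. It had 7.68, 6.04 and 2.096 FPKM in KO tumors and 2.93, 3.41 and 2.600 FPKM in WT tumors. The livers had 0.127, 0.306 and 0.203 FPKM in KO mice and 0.196, 0.145 and 0.279 FPKM in WT mice. Each tumor lay far above each liver, and tumors of both genotypes overlapped. Col4a3 rose in KO tumors against KO livers (2.25 ± 0.37, adjusted p = 0.0148) and in WT tumors against WT livers (1.72 ± 0.14, adjusted p = 0.00137), while KO against WT tumors gave 0.53 ± 0.38, adjusted p = 0.515. Its head-to-head neighbor Col4a4, with which it overlaps by 114 bases, had 0.382 to 0.933 FPKM in KO tumors, 0.165 to 0.334 FPKM in WT tumors, 0.0337 to 0.0968 FPKM in KO livers and 0.0229 to 0.0314 FPKM in WT livers, and was not tested. Col4a5, the third chain of that trimer, had 2.24, 2.099 and 0.5197 FPKM in KO tumors, 0.553, 0.9805 and 0.976 FPKM in WT tumors, 0.183, 0.158 and 0.139 FPKM in KO livers and 0.0363, 0.0714 and 0.105 FPKM in WT livers, so each tumor again exceeded each liver, and it missed the filter. Endothelial markers, 11 of 12 found, summed to 124 to 186 FPKM in KO tumors, 101 to 155 FPKM in WT tumors, 144 to 166 FPKM in KO livers and 131 to 156 FPKM in WT livers, and the sums overlapped between tumors and livers. Of 10 tested, 2 rose and 0 fell in KO tumors against KO livers, Cdh5 (1.03 ± 0.20, adjusted p = 0.0219) and Plvap (1.02 ± 0.22, adjusted p = 0.0272). Of all tested entries 9.09% rose and 5.17% fell there. At an unadjusted p below 0.05 in limma, 4 endothelial markers were higher and 2 lower, as were 2106 and 1832 of all 11671 entries. In WT tumors against WT livers Emcn rose (0.88 ± 0.15, adjusted p = 0.0124) and Clec4g fell (-0.89 ± 0.21, adjusted p = 0.0333), where 8.01% of all entries rose and 8.96% fell. The part of endothelial cells in the type IV values was not tested.

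Type VI collagen forms beaded filaments next to basement membranes and is a heterotrimer, usually of the Col6a1, Col6a2 and Col6a3 chains. Col6a1 (chr10:76708792-76726044) had 4.66, 14.9 and 4.02 FPKM in KO tumors, 1.49, 1.71 and 1.93 FPKM in WT tumors, 1.43, 2.65 and 2.22 FPKM in KO livers and 1.43, 2.02 and 0.943 FPKM in WT livers. Col6a2 (chr10:76595756-76623630), on the same chromosome, had 3.83, 12.6 and 2.41 FPKM in KO tumors, 0.9902, 1.12 and 1.16 FPKM in WT tumors, 0.837, 1.15 and 0.906 FPKM in KO livers and 0.625, 1.24 and 0.372 FPKM in WT livers. Col6a3 (chr1:90766860-90844001) had 4.14, 6.39 and 1.69 FPKM in KO tumors, 0.674, 1.37 and 0.872 FPKM in WT tumors, 0.545, 0.405 and 0.468 FPKM in KO livers and 0.428, 0.957 and 0.404 FPKM in WT livers. For all 3 genes each KO tumor exceeded each other library, KO tumor 2 by the most, and WT tumors overlapped with WT livers. Col6a3 rose in KO tumors against KO livers (1.67 ± 0.35, adjusted p = 0.0261). Col6a1 (1.33 ± 0.44, adjusted p = 0.08096) and Col6a2 (1.63 ± 0.47, adjusted p = 0.0588) did not pass in that comparison.

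Fibril-associated collagens sit on the surface of fibrils. Col14a1 (chr15:55307644-55520803), a gene of such a chain, had 10.01, 10.9 and 15.95 FPKM in KO tumors, 7.74, 6.16 and 6.703 FPKM in WT tumors, 5.87, 9.37 and 9.403 FPKM in KO livers and 4.26, 5.24 and 3.08 FPKM in WT livers. KO samples exceeded WT samples without overlap in both tissues. Col14a1 rose in KO livers against WT livers (0.82 ± 0.23, adjusted p = 0.0469), and the tumors gave 0.74 ± 0.21, adjusted p = 0.151. Col12a1 (chr9:79598987-79721141), its close relative, had 1.56, 1.23 and 2.14 FPKM in KO tumors, 0.515, 0.677 and 0.785 FPKM in WT tumors, 0.583, 0.205 and 0.5096 FPKM in KO livers and 0.728, 1.26 and 1.16 FPKM in WT livers. Its mean was highest in KO tumors and lowest in KO livers, and it rose in KO tumors against KO livers (0.88 ± 0.20, adjusted p = 0.03203). KO livers against WT livers did not pass (-0.52 ± 0.15, adjusted p = 0.0563).

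The multiplexins are proteoglycans of basement membrane zones. Col18a1 (chr10:77052178-77166530), which hepatocytes are known to express, had 121, 136 and 175 FPKM in KO tumors, 173, 177 and 187 FPKM in WT tumors, 183, 172 and 224 FPKM in KO livers and 187, 162 and 162 FPKM in WT livers. No comparison of Col18a1 passed, with KO tumors against KO livers at -0.43 ± 0.23, adjusted p = 0.232. Col15a1 (chr4:47207655-47313167) had 10.1, 19.1 and 2.996 FPKM in KO tumors and 0.847, 2.35 and 1.57 FPKM in WT tumors. It had 1.75, 1.56 and 4.43 FPKM in KO livers and 1.11, 0.986 and 1.29 FPKM in WT livers. KO tumors 1 and 2 stood far above the rest, KO tumor 3 lay within the range of KO livers, and neither KO tumors against KO livers (1.51 ± 0.58, adjusted p = 0.1196) nor KO against WT tumors (1.94 ± 0.57, adjusted p = 0.161) passed. The second Col15a1 entry leaned the other way in KO tumors against KO livers (-0.44 ± 0.61, adjusted p = 0.641).

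Col13a1 (chr10:61838234-61979206) encodes a collagen anchored in the cell membrane and was the only tested gene of its class. It had 0.4605, 0.487 and 0.418 FPKM in KO tumors and 1.21, 1.46 and 0.967 FPKM in WT tumors. It had 2.48, 4.86 and 3.303 FPKM in KO livers and 2.304, 1.78 and 2.699 FPKM in WT livers. Its order was that of the type I genes turned round, with each KO tumor below each WT tumor and each tumor below each liver. Col13a1 fell in KO tumors against KO livers (-1.61 ± 0.22, adjusted p = 0.00973), and WT tumors against WT livers gave -0.56 ± 0.16, adjusted p = 0.05404.

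Of the 25 genes that were not tested, 21 stayed below an FPKM of 1 in all 12 libraries. These included the cartilage fibril genes Col2a1 and Col11a1, the type IX genes Col9a1, Col9a2 and Col9a3, the growth plate gene Col10a1 and the epidermal gene Col17a1, with 0.131 FPKM of Col9a3 in KO liver 2 as the highest value among them. The 4 that reached 1 somewhere were Col4a5, Col6a5, Col6a6 and Col8a1. Col8a1, which encodes a network-forming chain of vessel walls, had 1.19, 1.64 and 0.453 FPKM in KO tumors, 0.337, 0.373 and 0.132 FPKM in WT tumors, 0.0746, 0.2198 and 0.107 FPKM in KO livers and 0.127, 0.1095 and 0.0115 FPKM in WT livers, and each KO tumor exceeded each other library. Col6a5 reached 2.00 FPKM in KO tumor 2, and Col6a6 1.35 FPKM in WT tumor 1 with at most 0.483 FPKM elsewhere.

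In KO tumors against KO livers, the chains of ordinary scar fibrils and of basement membranes rose together, and Col5a3 and Col13a1 fell. Of the 19 tested collagen genes, 10 rose and 2 fell, against 9.09% of all 11671 tested entries that rose and 5.17% that fell, or 14.3% called either way. The genes that rose were 5 of 7 fibrillar chains (Col1a1, Col1a2, Col3a1, Col5a1, Col5a2), all 3 tested type IV chains, Col6a3 of 3 type VI chains and Col12a1. The filter had let in Col5a1 through KO tumors alone, and Col4a3, Col5a2 and Col6a3 through tumors alone. For Col12a1 each KO tumor and no KO liver reached the 1 FPKM of the filter. Groups did not overlap for 13 genes that were higher, where the share among all entries was 21.3%, and for 3 that were lower, where it was 19.8%. The median log2 difference was 1.51 over the 19 genes and -0.02 over all tested entries. Rescaling each library to a common sum raised the median of all entries to 0.36 and changed the split of all calls to 1791 higher and 281 lower, against 1061 and 603 as deposited. On that scale 13 collagen genes rose and 2 fell, and relative to the median of all entries Col1a1 was at 4.05, Col4a1 at 2.98, Col5a3 at -2.20 and Col18a1 at -0.36. Col1a1, Col3a1 and Col5a2 stayed past the threshold whichever of the 6 libraries was left out. Col1a2 lost its call without KO liver 2 (adjusted p = 0.0504), Col13a1 without KO liver 3 (adjusted p = 0.0532) and Col4a3 without any 1 of the KO livers, and the other 6 without KO tumor 1 or any 1 of the KO livers. The count of calls was then 6 without KO tumor 1, and 5, 4 and 4 without KO livers 1, 2 and 3.

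Markers of other cells also moved in this comparison, where 9.09% of all tested entries rose and 5.17% fell. Stellate cell and fibroblast markers, 17 of 17 found and none listed at 0, summed to 105 to 173 FPKM in KO tumors and 57.5 to 91.7 FPKM in KO livers, and 2 of 13 tested rose, Pdgfrb (1.37 ± 0.26, adjusted p = 0.0218) and Cygb (1.24 ± 0.26, adjusted p = 0.0274). At an unadjusted p below 0.05 in limma, 6 of these 13 were higher and 1 lower, as were 2106 and 1832 of all 11671 entries. Macrophage markers, 12 of 12 found with none at 0, summed to 599.6 to 844 FPKM in KO tumors and 281 to 396 FPKM in KO livers, and 6 of 12 rose. Cholangiocyte markers, 10 of 10 found, summed to 349.9 to 3553 FPKM in KO tumors and 79.1 to 92.6 FPKM in KO livers, and 3 of 9 rose, most of the sum being Spp1 (osteopontin) with 554, 3505 and 254 FPKM in KO tumors. Hepatocyte markers had a median log2 difference of -0.96, and of 10 tested limma called 0, with 4 lower at an unadjusted p below 0.05. Smooth muscle markers, 3 of 3 found, summed to 3.400 to 5.38 FPKM in KO tumors and 1.58 to 4.33 FPKM in KO livers. Mesothelial markers, 6 of 6 found, reached at most 2.86 FPKM in any library. The part of these cells in the collagen differences was not tested, and in bulk tissue more cells of a type and more RNA per cell cannot be told apart.

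In WT tumors against WT livers, type I and type III genes rose as well, with smaller differences, along with Col4a2, Col4a3 and Col5a2. Of the 19 tested genes 6 rose and 0 fell, against 8.01% and 8.96% of all tested entries, 17.0% in all. At an unadjusted p below 0.05, 8 were higher and 1, Col13a1, was lower, against 15.7% and 19.5% of all entries. Groups did not overlap for 8 genes that were higher (18.5% of all entries) and 1 that was lower (23.8%). The median log2 difference was 0.29 over the 19 genes and -0.04 over all entries, which became 0.23 after rescaling to a common sum, with 1660 entries called higher and 408 lower in place of 935 and 1046. Stellate cell and fibroblast markers summed to 45.9 to 73.7 FPKM in WT tumors and 38.9 to 61.4 FPKM in WT livers, which overlapped, and 0 of 13 were called by limma, with 0 at an unadjusted p below 0.05. Cholangiocyte markers summed to 209 to 683 FPKM in WT tumors and 43.7 to 136 FPKM in WT livers without overlap, and among them Tspan8, Sox9 and Krt23 rose. Of 10 hepatocyte markers 1 rose (Apoa1) and 4 fell (Cps1, Ass1, Hnf4a, Pck1), and of 12 macrophage markers 1 fell (Timd4). The part of these cells in the collagen values was not tested. Col4a3 passed whichever library was left out. The filter had let in Col4a3 and Col5a2 through tumors alone. Col4a2 was lost without WT liver 3, Col1a1 and Col1a2 without WT tumor 2, WT liver 1 or WT liver 3, and Col3a1 also without WT tumor 3. Col5a2 was lost in each of these runs except the one without WT tumor 1. The count was 2 without WT tumor 2, 2 without WT liver 1 and 1 without WT liver 3.

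The means of the tested type I, III, IV, V and VI genes were higher in KO tumors than in WT tumors, except for Col5a3, but no collagen gene passed the test. In the limma comparison of KO tumors with WT tumors 0 of 19 genes were called, against 0.0771% of all tested entries, 0.0343% higher and 0.0428% lower. At an unadjusted p below 0.05, 13 collagen genes were higher and 1 was lower in KO tumors, against 10.9% and 6.73% of all entries. Groups did not overlap for these 13 higher genes, against 13.8% of all entries, nor for Col13a1, which was lower, against 10.1%. Col5a1, 1 of the 13, passed the filter through KO tumors alone, so it had to be higher there without overlap. Col12a1, also 1 of them, passed it with no WT tumor at 1 FPKM, which favored its rise. The median log2 difference was 1.26 over the 19 genes and 0.02 over all entries, and 0.12 over all entries after rescaling to a common sum. The mean FPKM in KO tumors was 8.42 times that in WT tumors for Col1a1, 7.19 times for Col1a2, 6.75 times for Col15a1, 5.76 times for Col6a2 and 4.79 times for Col3a1. The second Col15a1 entry differed less between these tumors (log2 difference 0.47 ± 0.55, adjusted p = 0.700). Without KO tumor 3, which had the lowest type I and IV values of the KO tumors, 8 genes passed, all higher, where 2.28% of all entries were called, 1.40% higher and 0.883% lower. Leaving out any other library of these 2 groups gave 0 collagen calls, as did rescaling to a common sum. A fit of all 12 libraries, which pools the spread of the 4 groups, called 12, all higher, where 8.71% of all entries were called, 5.97% higher and 2.74% lower. Stellate cell and fibroblast markers summed to 105 to 173 FPKM in KO tumors and 45.9 to 73.7 FPKM in WT tumors. Macrophage markers summed to 599.6 to 844 FPKM in KO tumors and 176 to 536 FPKM in WT tumors. Neither sum overlapped between the groups. Limma called 0 members, and at an unadjusted p below 0.05, 8 of 13 stellate cell and fibroblast genes and 6 of 12 macrophage genes were higher in KO tumors, where 10.9% of all entries were. By the same measure 3 of 10 hepatocyte genes were lower, where 6.73% of all entries were, and their median log2 difference was -1.12. Their part in the collagen values was not tested.

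Whether the genotype effect differed between tumors and livers was tested as an interaction term over the 12 libraries. This fit pools the spread of the 4 groups, which was not alike. Col5a2 (1.55 ± 0.22, adjusted p = 0.0181), Col4a1 (2.73 ± 0.57, adjusted p = 0.0417), Col12a1 (1.18 ± 0.25, adjusted p = 0.0422) and Col1a1 (2.60 ± 0.57, adjusted p = 0.0449) passed, all with a larger KO effect in tumor, so 4 of 19 genes were called, against 2.08% of all tested entries either way, 1.15% in that direction and 0.934% in the other. Col4a1 and Col12a1 had positive differences between KO and WT tumors and negative ones between KO and WT livers. Col12a1 passed the filter through the KO tumors and WT livers 2 and 3 alone, the groups that enter this term with a plus sign. The filter thus favored its call. Col5a2 passed the filter through tumors alone. Col1a2 (2.08 ± 0.52, adjusted p = 0.0606), Col4a2 (1.75 ± 0.46, adjusted p = 0.0698) and Col13a1 (-1.05 ± 0.27, adjusted p = 0.0646) missed the threshold. Rescaling to a common sum gave a median of 0.14 over all entries, against 0.02 as deposited, and 76 entries called higher and 39 lower, in place of 134 and 109. The count of collagen genes changed with single libraries. It was 13 without KO tumor 3, 1 without KO tumor 1, 1 without KO liver 2 and 0 without KO liver 3. It was 2, 1 and 1 without WT tumors 1, 2 and 3, and 0 without WT liver 2 or WT liver 3. Col5a2 was called in 9 of 12 such runs, Col4a1 and Col12a1 in 4 each and Col1a1 in 1.

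In KO livers against WT livers few collagen genes differed, and not in one direction. Col5a3 and Col14a1 rose and Col4a1 fell, so 3 of 19 tested genes were called, which is close to the 18.1% of all tested entries called (9.33% higher, 8.77% lower). Rescaling to a common sum gave 1 higher and 2 lower, since Col14a1 missed the threshold and Col12a1 fell (log2 difference -0.64, adjusted p = 0.0454). Groups did not overlap for 4 higher genes (Col5a3, Col14a1, Col15a1, Col27a1; 21.9% of all entries) and 2 lower ones (Col4a1, Col12a1; 20.7%). The median log2 difference was 0.17 over the 19 genes and 0.03 over all entries. Each of the 3 calls held in 1 of 6 refits with a library removed. Without KO liver 2, KO liver 3, WT liver 2 or WT liver 3 the count was 0, and without WT liver 1 it was 1, Col4a1. Stellate cell and fibroblast markers summed to 57.5 to 91.7 FPKM in KO livers and 38.9 to 61.4 FPKM in WT livers, which overlapped, and 2 of 13 rose, Myl9 (1.25 ± 0.22, adjusted p = 0.0173) and Colec11 (0.86 ± 0.22, adjusted p = 0.0419). At an unadjusted p below 0.05, 7 of these 13 were higher and 0 lower, against 19.6% and 18.0% of all entries. Of 10 hepatocyte markers 1 rose (Ttr) and 2 fell (Hnf4a, Fgb). Their part in the collagen values was not tested.

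**Figure D5:**
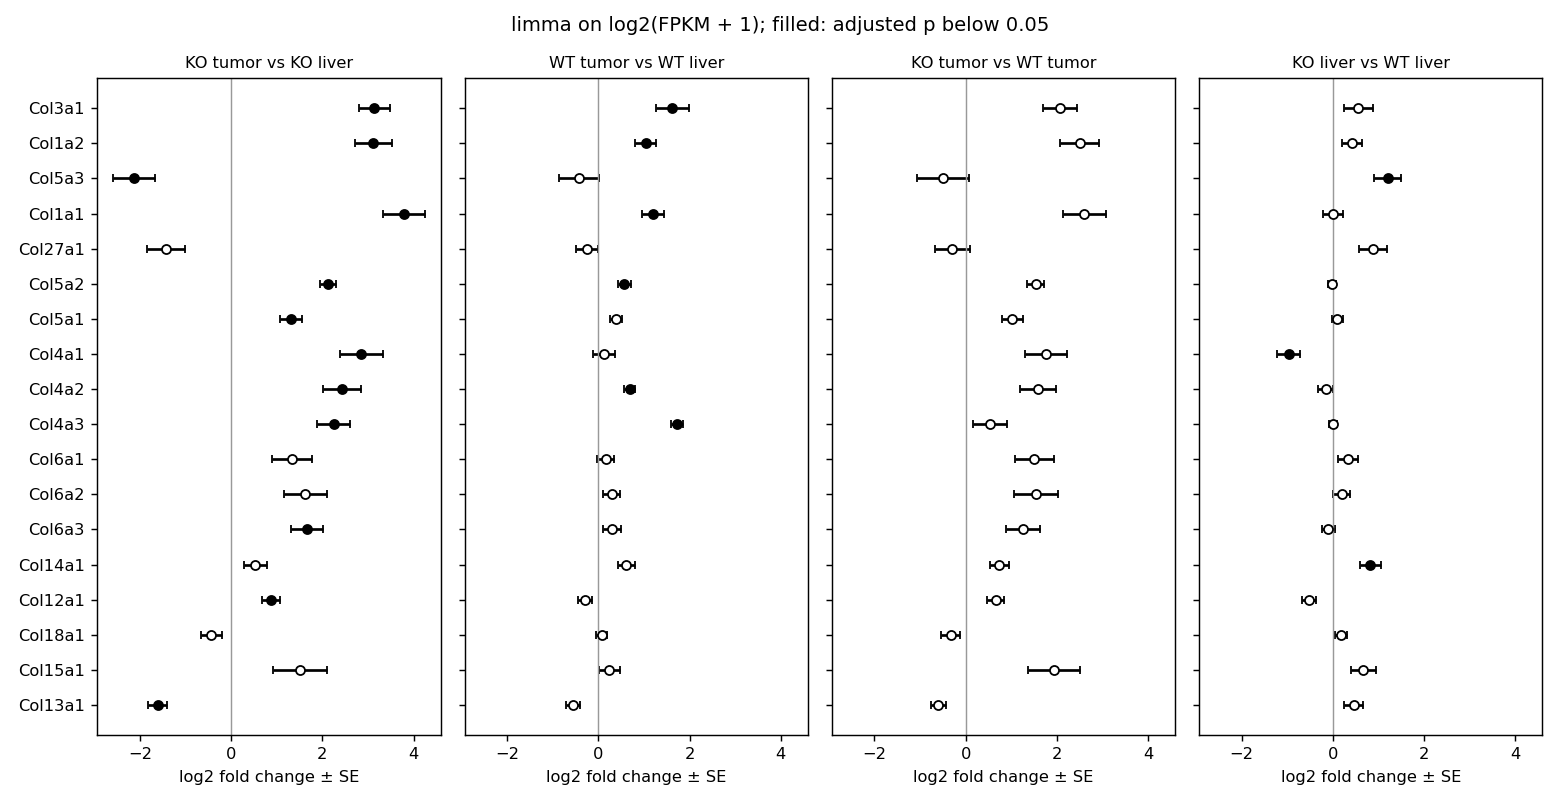
Log2 differences with SE from limma on log2(FPKM + 1) (horizontal axes) for the 18 tested collagen genes with their own entry, 1 panel per comparison, 3 libraries a group. Filled points have an adjusted p below 0.05: 12 in KO tumors against KO livers, 6 in WT tumors against WT livers, 0 between the tumors and 3 between the livers.

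The KO tumors kept a similar order across many of the chains. In 11 of the 18 tested genes with their own entry, KO tumor 2 was highest and KO tumor 3 lowest, including the type I, III, IV (Col4a1, Col4a2) and VI genes. Col14a1 and Col18a1 instead were highest in KO tumor 3, as was Col12a1. The highest of the 3 libraries was at the median gene 3.56 times the lowest in KO tumors, 1.41 times in WT tumors, 1.72 times in KO livers and 1.82 times in WT livers. Marker genes did not follow one order either. Pdgfrb, a receptor of stellate cells and pericytes, had 3.88, 6.91 and 3.26 FPKM in KO tumors 1, 2 and 3, and Rgs5, a pericyte gene, had 22.4, 53.4 and 14.2 FPKM, both highest where the fibrillar genes were. Acta2, the smooth muscle actin of myofibroblasts, had 17.5, 11.4 and 33.98 FPKM and Tagln (transgelin) 14.3, 22.5 and 44.9 FPKM, both highest in KO tumor 3.

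Lists of genes whose products make, cut, bind or sense collagen were counted in the same way. In KO tumors against KO livers, where 9.09% of all tested entries rose, 4 of the genes named as risen had to be higher in KO tumors, since Fkbp10, Adamts2, Thbs1 and Tnc passed the filter through KO tumors alone. There 3 of 14 tested genes of collagen folding and secretion rose, namely Serpinh1, the chaperone HSP47 (1.53 ± 0.36, adjusted p = 0.03502), Fkbp10, a prolyl isomerase (1.33 ± 0.26, adjusted p = 0.0221), and Crtap of the prolyl 3-hydroxylase complex (1.05 ± 0.23, adjusted p = 0.0288), and 0 fell. Of 9 tested genes of procollagen cleavage and cross-linking 2 rose, Pcolce, an enhancer of C-propeptide removal (1.72 ± 0.27, adjusted p = 0.01398), and Adamts2, an N-propeptidase (1.41 ± 0.24, adjusted p = 0.0155). Of 7 genes of collagen breakdown and its inhibitors, 2 rose and both encode inhibitors of matrix metalloproteinases, Timp1 (2.58 ± 0.48, adjusted p = 0.0204) and Timp3 (1.58 ± 0.21, adjusted p = 0.00996). At an unadjusted p below 0.05 in limma, 6 of these 7, not only inhibitor genes, were higher and 0 lower. Of all 11671 entries 2106 were higher and 1832 lower by that measure. Collagen receptors rose in 2 of 5 cases, the receptor kinase gene Ddr1 (2.95 ± 0.39, adjusted p = 0.00965) and Lair1, an inhibitory receptor of immune cells (1.29 ± 0.23, adjusted p = 0.0176).

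Against the same 9.09% of all entries, fibril-binding matrix proteins rose for 6 of 10 tested genes, among them Sparc (2.47 ± 0.32, adjusted p = 0.00917), Postn (1.45 ± 0.22, adjusted p = 0.01297), Thbs1 (1.77 ± 0.28, adjusted p = 0.0138) and Tnc (0.99 ± 0.17, adjusted p = 0.0166). Basement membrane partners of type IV collagen rose for 4 of 10, Nid1, which links laminin to type IV collagen (2.89 ± 0.37, adjusted p = 0.00873), and the laminin chain genes Lama5 (1.69 ± 0.30, adjusted p = 0.0179), Lamc1 (1.22 ± 0.26, adjusted p = 0.0287) and Lamb1 (0.88 ± 0.20, adjusted p = 0.0323). Of 15 genes of fibrogenic signaling 5 rose, with Tgfbr2, a receptor of TGF-beta (2.40 ± 0.26, adjusted p = 0.00698), Ctgf (2.28 ± 0.39, adjusted p = 0.0166), Pdgfa (0.98 ± 0.17, adjusted p = 0.0172) and Tgfb1 (0.94 ± 0.18, adjusted p = 0.0212) having the smallest p-values. In this comparison 0 genes of these 7 lists fell. Between KO and WT tumors 0 genes of these lists were called by limma, and at an unadjusted p below 0.05, 31 of 70 were higher and 0 lower in KO tumors, against 10.9% and 6.73% of all entries. Of the 70, 6 passed the filter through KO tumors alone, so they had to be higher there.

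In KO livers against WT livers these lists moved in both directions. Mmp14, a membrane-bound protease that cuts fibrillar collagen, fell to 4.98, 9.05 and 3.901 FPKM in KO livers, against 20.8, 24.9 and 51.4 FPKM in WT livers (-2.22 ± 0.38, adjusted p = 0.0163). P4ha2, a subunit of collagen prolyl 4-hydroxylase, fell (-0.97 ± 0.20, adjusted p = 0.0247), as did Timp3 (-0.55 ± 0.15, adjusted p = 0.0442), Fn1, the fibronectin gene (-0.89 ± 0.14, adjusted p = 0.01299), and Thbs1 (-0.44 ± 0.10, adjusted p = 0.0288). Thbs1 stayed below 1 FPKM in each liver of both genotypes. Mmp15 (0.74 ± 0.20, adjusted p = 0.0454), the small proteoglycan gene Dcn (0.98 ± 0.23, adjusted p = 0.0331) and Pdgfa (0.73 ± 0.14, adjusted p = 0.0199) rose, while Itgav (-0.71 ± 0.15, adjusted p = 0.0238) and Smad4 (-0.57 ± 0.13, adjusted p = 0.0316) fell. In numbers, 0 rose and 1 fell of 14 folding genes, 1 rose and 2 fell of 7 breakdown genes, 1 rose and 2 fell of 10 fibril-binding genes, and 1 rose and 2 fell of 15 signaling genes, where 9.33% of all entries rose and 8.77% fell. Limma called 0 of 9 cleavage and cross-linking genes, 0 of 5 receptors and 0 of 10 basement membrane partners, and at an unadjusted p below 0.05, 1 gene of each of these lists was higher, where 19.6% of all entries were.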

How the data were processed

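Per the labels' protocols, libraries of 12 samples were made from polyadenylated RNA without strand information. The deposited FPKM values, 1 table per library, were made by the authors with TopHat2 2.1.1 and Cufflinks 2.2.1 on mm10, per the submitters' processing notes. For their annotation and options, nothing is given in the sources used here. At most 0.999% of low values fell on a common ratio between libraries, so reads could not be recovered.

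Values were analysed as log2(FPKM + 1). An added 1 understates changes of genes with low FPKM. Entries with an FPKM of 1 or more in at least 3 of 12 libraries were tested, 11671 of 24553. With limma 3.58.1 in R 4.3.3 (empirical Bayes with a variance trend), 2 groups were compared on their 6 libraries alone, and the interaction on all 12. Tests were two-sided, with Benjamini-Hochberg adjustment over the 11671 entries and a threshold of 0.05. The fit was tested on simulated data. Sums, shares and ratios were computed with Python 3.11.15 and pandas 2.3.3 and were not tested.

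The collagen genes, the 7 classes, the 7 pathway lists and the 8 marker lists were chosen with earlier results of these data known. Of 184 listed symbols 178 matched an entry. Named were 12 set genes, each gene called in any comparison, the most abundant gene of each class, and of each other list up to 4 genes with the smallest adjusted p in 2 comparisons. Coordinates and promoter windows are from RefSeq (GRCm38.p6, the assembly that mm10 names). Alternatives were pseudocounts of 0.1 and 5, no filter, rescaling to a common sum (TPM), median-of-ratios scaling, the replicate number as a block, 1 fit of all 12 libraries, and removal of 1 library at a time. The result of 1 listed marker gene is not reported here.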

Additional observations from a re-analysis of the deposited data

Results flagged for a closer look

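The effect of the Setd2 knockout differed between tumor and normal liver for 4 collagen genes, by the interaction term of the limma fit on all 12 libraries. The difference of the effects (tumor minus liver, log2) was 2.60 for Col1a1, 2.73 for Col4a1, 1.55 for Col5a2 and 1.18 for Col12a1. For Col1a1 and Col5a2 the larger estimates were in the tumors, with KO minus WT at 2.60 and 1.53 in tumors and at 0.00 and -0.02 in livers. In the limma comparisons of the tumors alone neither passed (adjusted p = 0.0775 and 0.0512). For Col4a1 and Col12a1 both tissues contributed, with KO minus WT at 1.76 and 0.66 in tumors and at -0.96 and -0.52 in livers. Of these differences within a tissue, limma called only that of Col4a1 in livers (adjusted p = 0.0428). These calls depended on single libraries. With 1 of the 12 libraries left out at a time, Col5a2 was called in 9 runs, Col4a1 and Col12a1 in 4 each and Col1a1 in 1. The count of collagen genes called ran from 0 to 13.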

How the results depend on the processing

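Counts of collagen genes called changed with the setting. Against 0 called between KO and WT tumors, leaving out 1 library gave 0 to 8 and 1 fit of all libraries 12. Against 3 between KO and WT livers, leaving out 1 library gave 0 to 3, no filter 1, 1 fit of all libraries 1, and the replicate block 0. The 1 gene called without a filter was Col23a1, and 0 of the 3 kept their call. Against 12 in KO tumors versus KO livers, leaving out 1 library gave 4 to 15 and no filter 7, of which 5 were among the 12. Against 6 in WT tumors versus WT livers, the range was 1 to 6 and 1 fit of all libraries gave 3. No filter also gave 6 there, but only 3 of them were among the first 6. Against 4 for the interaction, the range was 0 to 13, a pseudocount of 5 gave 2, no filter 1 and the replicate block 2. Scaling by median of ratios kept each of the 5 counts, and rescaling to TPM gave 0, 3, 15, 7 and 3. The causes were not tested.

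Replicate numbers did not pair the samples. Correlations of same-numbered libraries ran from -0.276 to 0.347 and not each exceeded 0.1. With the number as a replicate block the counts were 0 between tumors, 0 between livers, 15 in KO tumors versus KO livers, 5 in WT tumors versus WT livers and 2 for the interaction.

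The differences whose direction turned were not called, and each such cause was not tested. Without 1 library, Col1a1 ranged from -0.21 to 0.25, Col4a2 from -0.24 to 0.0011, Col4a3 from -0.050 to 0.057, Col5a2 from -0.064 to 0.048 and Col6a3 from -0.18 to 0.055 in KO livers versus WT livers. In WT tumors versus WT livers Col4a1 ranged from -0.15 to 0.28, Col5a3 from -0.79 to 0.094 and Col6a1 from -0.0024 to 0.32. Col27a1 ranged from -0.62 to 0.047 in KO tumors versus WT tumors, and Col14a1 from -0.29 to 0.078 for the interaction. A pseudocount of 5 turned Col1a1 between livers to -0.0103 and Col14a1 in the interaction to 0.0125. Median-of-ratios scaling turned the same Col1a1 value to -0.0102. Rescaling to TPM turned Col14a1 in the interaction to 0.0273 and Col18a1 in KO tumors versus KO livers to 0.00039. Depth is unknown, so what it limits cannot be stated.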

Other observations

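Collagen genes with doubtful or joined entries gave further values. The second Col15a1 entry had 0.995, 7.02 and 0.807 FPKM in KO tumors and 0.935, 1.29 and 1.47 FPKM in WT tumors. It had 1.81, 2.76 and 5.89 FPKM in KO livers and 1.08, 0.687 and 0.763 FPKM in WT livers. This entry rose in KO livers against WT livers (limma, log2 difference 1.19 ± 0.31, adjusted p = 0.0417), where the first entry did not pass. It did not pass in KO tumors against WT tumors (0.47 ± 0.55, adjusted p = 0.700) or against KO livers (-0.44 ± 0.61, adjusted p = 0.641). Col20a1 was found only in an entry joined with Arfgap1, a gene of membrane traffic, so its 10.9 ± 1.07 FPKM in KO tumors, 13.0 ± 2.68 FPKM in WT tumors, 9.48 ± 2.5 FPKM in KO livers and 12.1 ± 3.43 FPKM in WT livers (SD, n = 3 each) cannot be assigned to it. Col7a1 was found only in an entry joined with Mir711 and was not tested.

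Some chains at very low levels were called by limma when every entry with a value above 0 was fitted without the filter. Among the 25 untested genes these were Col16a1 (log2 difference 0.51, adjusted p = 0.0382) and Col22a1 (0.10, adjusted p = 0.0491), which rose in KO tumors against KO livers. In WT tumors against WT livers Col4a5 (0.77, adjusted p = 0.0293), Col4a4 (0.31, adjusted p = 0.0482) and Col10a1 (0.04, adjusted p = 0.0456) rose, and in KO livers against WT livers Col23a1 did (0.08, adjusted p = 0.0283). Apart from Col4a5, none of these 6 reached an FPKM of 1 in any library.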
